A study of Homo sapiens with 2 samples.

Results

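The genes described here are 57 genes of DNA replication and mitosis, taken as a fixed list of names and read for LSD1 peaks at their promoters in PC-3M-luc cells. They are 57 of the 20162 protein-coding genes of the annotation used (GENCODE on hg19), and all 57 were found in it. A gene was counted as having a promoter peak where any base of a peak lay within 1 kb of any annotated transcription start site (TSS) of that gene. The list divides into 36 G1/S and replication genes and 21 G2/M genes, with CCNA2 placed in G2/M.

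The study measured 2 libraries from PC-3M-luc, human prostate carcinoma cells that descend from the androgen-independent line PC-3 by way of its metastatic variant PC-3M and carry a luciferase marker. Both came from cells labelled as control in genotype, at passages 17 to 20, grown in medium with 10% serum, with no other treatment named. 1 library was chromatin immunoprecipitated with an antibody to LSD1 (ChIP-seq) and 1 was input DNA, and the authors deposited a single list of 20110 peaks. With 1 library per arm from 1 cell line there is no replicate check, no p-value was computed across genes, and the read depth behind a peak is unknown. Each peak carries a score that is the authors' own value, from 50 to 3226 in this list, and it was used to rank and describe peaks. Where a gene is described as having no peak, none in the deposited list met the criterion, and weaker binding would not be seen. A peak list does not measure expression. Among markers used to describe the label, the epithelial genes KRT8, KRT18, EPCAM and CDH1 had promoter peaks, and the leukocyte genes PTPRC and CD3E had none.

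LSD1 (KDM1A) is a demethylase that removes mono- and dimethyl groups from histone H3 lysine 4 within corepressor complexes such as CoREST and NuRD. The cell cycle genes fall into successive waves of transcription. Genes of the G1/S wave are controlled by E2F factors and the RB family and encode the machinery that loads and runs the replication fork. Genes of the G2/M wave are controlled through the cell cycle genes homology region (CHR), which binds the MuvB core of the DREAM complex and, later in the cycle, MuvB with B-MYB and FOXM1, and through CCAAT boxes bound by NF-Y. In resting cells the DREAM complex represses genes of both waves.

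The promoters themselves show this division in sequence. The stretches below are from GRCh37 (hg19), written 5′ to 3′ on the strand of the gene, with capitals as each set says. The first set shows, in capitals, the E2F letters nearest to the canonical TSS at 5 genes of the MCM2 to MCM7 helicase, all on peaks: MCM2 at chr3:127317245-127317274 (plus strand), MCM3 at chr6:52149526-52149555 (minus), MCM5 at chr22:35796118-35796147 (plus), MCM6 at chr2:136634081-136634110 (minus) and MCM7 at chr7:99699011-99699040 (minus).
MCM2: cgtgaaccactTTTCGCGCgaaacctggtt
MCM3: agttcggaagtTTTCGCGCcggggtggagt
MCM5: cgcctcttgttTTTCCCGCgaaactcggcg
MCM6: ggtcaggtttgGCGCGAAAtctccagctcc
MCM7: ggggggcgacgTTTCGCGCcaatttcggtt
At MCM3 and MCM5 the letters began 4 bases before the TSS, at MCM7 9 bases before it and at MCM6 86 bases before it. At MCM2 they began 2 bases after it.

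In both short sets a single match is capitalised, and further matches to E2F, CHR or CCAAT elements stay in lower case. The second set shows, in capitals, the CHR letters nearest to the canonical TSS at G2/M genes. MAD2L1 (chr4:120987962-120987991, minus strand) and UBE2C (chr20:44441240-44441269, plus) had the highest scores over the canonical TSS among the genes whose top peak covered it. BUB1B (chr15:40453235-40453264, plus) had no promoter peak. CDC20 (chr1:43824575-43824604, plus), PLK1 (chr16:23690169-23690198, plus) and TOP2A (chr17:38574282-38574311, minus) were chosen after their values were seen, to show a range of scores.
MAD2L1: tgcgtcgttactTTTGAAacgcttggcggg
UBE2C: agagggttacaaTTCAAAcgcgggcgggcg
CDC20: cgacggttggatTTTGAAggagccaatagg
PLK1: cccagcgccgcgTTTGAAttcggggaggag
TOP2A: ctgattggtttaTTCAAAcaaaccccggcc
BUB1B: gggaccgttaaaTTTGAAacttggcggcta
The CHR letters were present at BUB1B, which had no peak, as at the 5 genes whose stretch lay under a peak.

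The third set gives the 250 bases before the canonical TSS for the 2 highest-scoring G1/S promoters, CCND1 (chr11:69455674-69455923, plus strand) and CDT1 (chr16:88869947-88870196, plus), and for MCM10 (chr10:13203308-13203557, plus), the first G1/S gene of the list without a peak, with all matches to the E2F, CHR and CCAAT elements in capitals.
CCND1: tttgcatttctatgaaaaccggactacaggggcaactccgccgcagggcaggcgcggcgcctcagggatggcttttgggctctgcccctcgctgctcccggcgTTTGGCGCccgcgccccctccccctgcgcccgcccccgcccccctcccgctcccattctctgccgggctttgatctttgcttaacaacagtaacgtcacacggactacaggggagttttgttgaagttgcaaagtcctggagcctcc
CDT1: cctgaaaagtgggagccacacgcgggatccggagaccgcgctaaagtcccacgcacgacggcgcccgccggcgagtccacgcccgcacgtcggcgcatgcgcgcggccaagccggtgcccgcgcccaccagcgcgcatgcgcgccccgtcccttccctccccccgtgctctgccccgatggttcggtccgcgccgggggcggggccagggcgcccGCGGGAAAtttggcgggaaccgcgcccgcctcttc
MCM10: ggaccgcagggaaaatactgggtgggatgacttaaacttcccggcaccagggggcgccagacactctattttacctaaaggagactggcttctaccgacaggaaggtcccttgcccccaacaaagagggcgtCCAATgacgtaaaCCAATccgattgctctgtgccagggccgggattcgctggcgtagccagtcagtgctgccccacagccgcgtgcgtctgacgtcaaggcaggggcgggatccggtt
The E2F letters began 147 bases before the TSS in CCND1 and 35 bases before it in CDT1. MCM10 held none of the E2F words and 2 CCAAT boxes, beginning 118 and 105 bases before the TSS. The GC content of the 3 stretches was 63.6%, 76.4% and 59.6%.

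Most of the replication and mitosis genes had an LSD1 peak at a promoter, but mostly a peak of low score and modest width. A promoter peak was present at 49 of the 57 genes (86.0%), against 58.1% of all protein-coding genes. The median score of the highest promoter peak was 284 over the 49 genes and 480.0 over the 11724 protein-coding genes with a peak, and 33 of the 49 (67.3%) lay below the latter value. Their median width was 1426 bp, against 1977 bp. With all genes that had a promoter peak ranked by score and cut into 4 equal parts, 23 of the 49 fell in the lowest part (up to 237) and 10, 7 and 9 in the next 3. Between them the genes carried 63 different promoter peaks, and no peak was counted for more than 1 of them.

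The share with a peak was close to that of other genes with CpG-rich promoters. A CpG-rich promoter (over 55% GC and an observed-to-expected CpG ratio over 0.65 in the 1000 bases around the canonical TSS) was present at 48 of the 57 genes, or 84.2%, against 56.6% of protein-coding genes. Of these 48, 40 had a peak (83.3%), against 78.8% of all CpG-rich genes. The remaining 9 genes all had a peak, against 32.8% of CpG-poor genes in the annotation. Their median score was 131, against 368 over all CpG-poor genes with a peak. The highest of the 9, CDC25B (1009) and GINS1 (477), had these scores in peaks that did not cover the canonical TSS. Those 9 were GINS1, RFC3, CDK2, CDK4, CCNB1, CDC25B, AURKB, CENPF and BIRC5. Several missed the CpG-rich definition narrowly, such as BIRC5 with a CpG ratio of 0.642 and CDC25B with 0.638. With genes that had no peak entered at a score of 0, the median was 215 for the 57 genes, 147 for all protein-coding genes and 370.0 for CpG-rich ones.

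**Figure D1:**
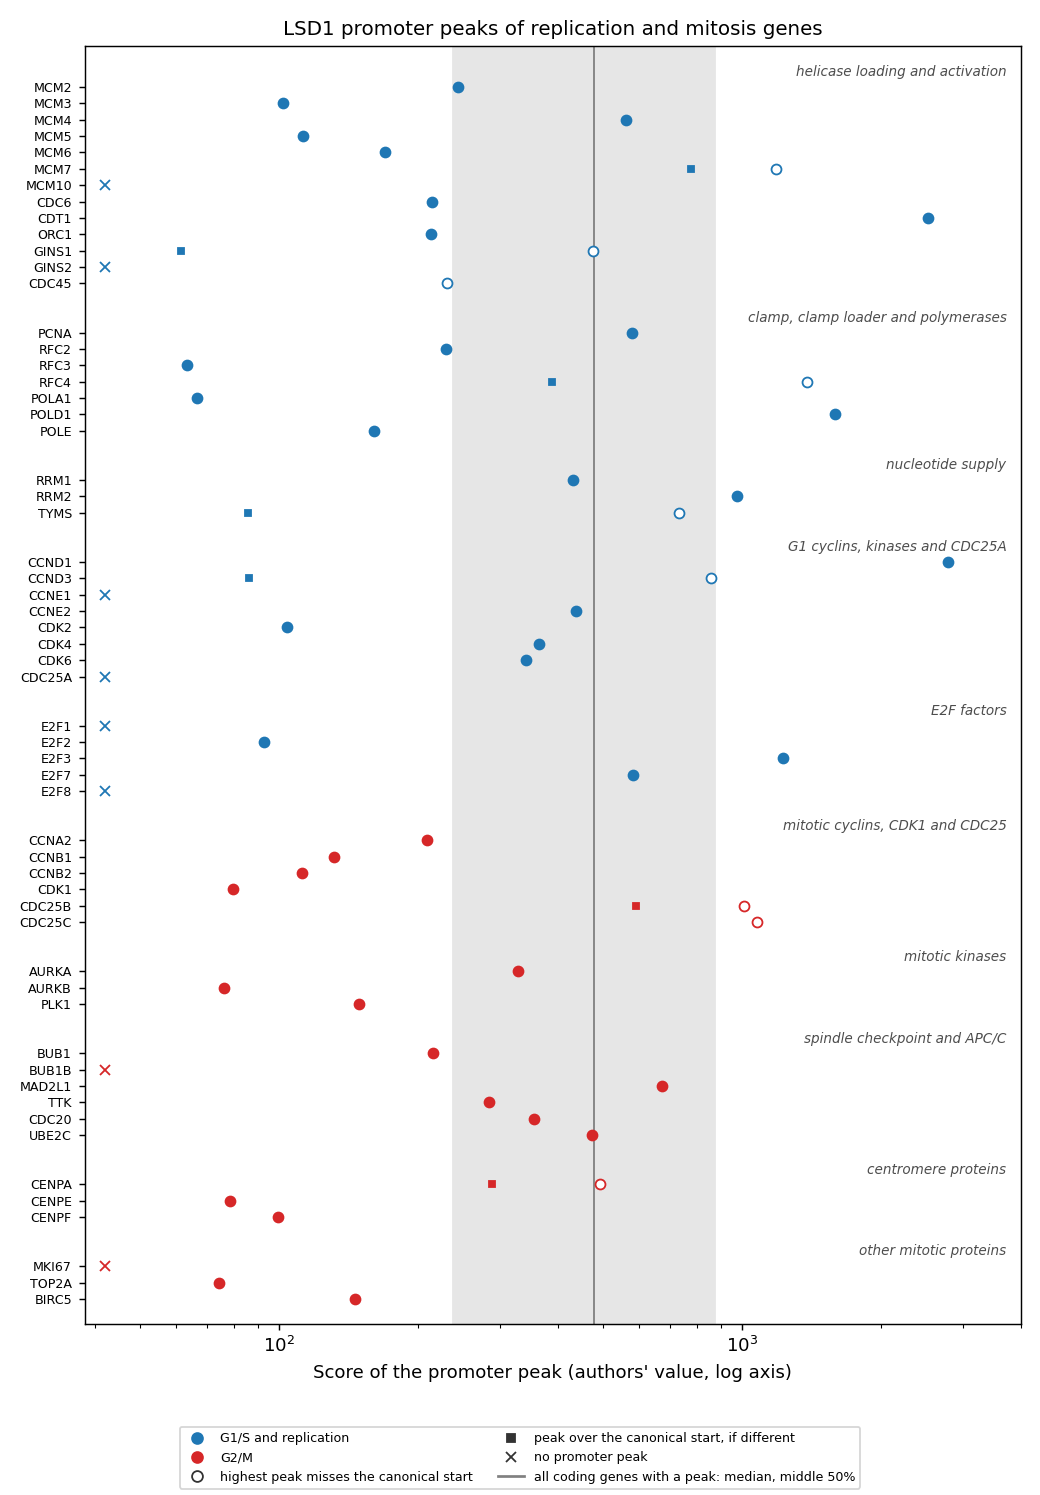
Score of the highest promoter peak of each gene (log axis), grouped by role, with G1/S and replication genes in blue and G2/M genes in red; open circles are peaks that miss the canonical TSS, small squares the peak over that TSS where it is a different one, and crosses genes without a promoter peak. The line and grey band give the median (480.0) and the middle 50% (237 to 873) of all protein-coding genes with a peak; 33 of the 49 circles lie left of the line.

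G1/S and replication genes had a peak slightly less often than G2/M genes, and at higher scores. A peak was present at 30 of the 36 G1/S genes (83.3%) and at 19 of the 21 G2/M genes (90.5%), a difference of 1 or 2 genes. The median score was 398 in G1/S (interval 213 to 582) and 209 in G2/M (interval 99.3 to 474). The intervals are those of a median at 95% over genes, which are not replicates. They do not cover the spread of the scores, which ran from 63.3 to 2789 in G1/S and from 74.2 to 1081 in G2/M. The intervals overlap. The order of the shares changed with the score asked for. At a score of at least 100, 27 G1/S genes (75.0%) and 14 G2/M genes (66.7%) had a peak, against 53.7% of all protein-coding genes. At or above the median score of all peaks (206) the counts were 22 (61.1%) and 10 (47.6%), against 45.9%. At 500 or more they were 12 (33.3%) and 3 (14.3%), against 28.0% of all genes and 40.2% of CpG-rich genes. At 1000 or more they were 6 (16.7%) and 2 (9.52%), against 12.0%. Median widths were 1535.5 bp in G1/S and 1354 bp in G2/M. The groups also differed in composition, since 32 of 36 G1/S promoters (88.9%) and 16 of 21 G2/M promoters (76.2%) were CpG-rich. Within CpG-rich promoters the median score was 434 in G1/S and 249 in G2/M, against 513 over all CpG-rich genes with a peak.

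Part of the difference in score came with peaks away from the main start site. For 9 of the 49 genes the highest peak did not cover the canonical TSS. These were 6 of the 30 G1/S genes with a peak, and CDC25B, CDC25C and CENPA among the 19 G2/M genes with one. The shares of the 2 groups were thus close, and the share over all genes is not given here. When each gene was read by the peak over its canonical TSS, a choice made after the data were seen, 29 of 36 G1/S genes and 18 of 21 G2/M genes had one, 82.5% together, against 54.2% of all genes. The median scores were then 243 and 179, against 471 over all genes. With the promoter peak nearest to the canonical TSS they were 237 and 209.

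**Figure D2:**
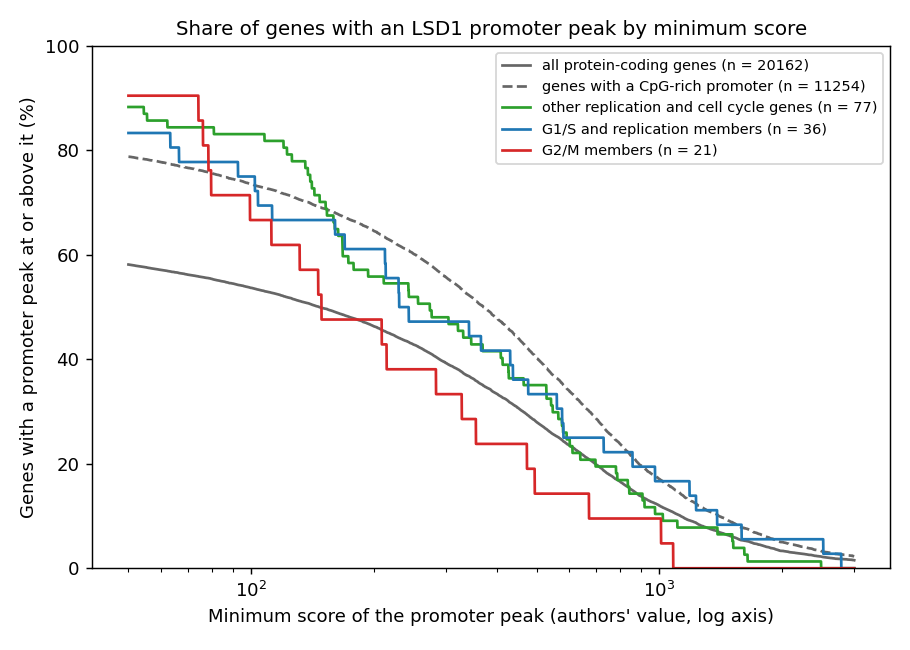
Share of genes (%) whose highest promoter peak reaches a minimum score (log axis), for G1/S and replication genes, G2/M genes, other genes of the same pathways, all protein-coding genes and genes with CpG-rich promoters. The G2/M curve starts highest at 90.5% and crosses below that of G1/S before a score of 100, reaching 14.3% at 500 where G1/S stands at 33.3%.

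Among the genes that load and start the replicative helicase, 11 of 13 had a peak, with a median score of 230.1. The highest belonged to CDT1, which loads the MCM helicase onto origins. Its peak (chr16:88866773-88881173) scored 2519.5, was 14401 bp wide, and ran over the whole gene (chr16:88870197-88875666, plus strand) and over the start of the neighbouring gene APRT. All of MCM2 to MCM7, the 6 subunits of the helicase ring, had a peak over the canonical TSS, but at very different scores. MCM4 stood at 561 and MCM7 at 776, while MCM2 stood at 243, MCM6 at 169, MCM5 at 112 and MCM3 at 102. MCM7 also had a higher peak (score 1185, 5437 bp) between 5223 and 10659 bp downstream of its canonical TSS, at an alternative start, which covers the miR-106b, miR-93 and miR-25 genes hosted by MCM7. The origin licensing genes CDC6 (213) and ORC1 (213) were alike in score. GINS1, a subunit of the active helicase, had a peak of 61.3 over its canonical TSS and a higher one (477), with its near edge 16254 bp upstream, over an alternative start and the start of ABHD12. CDC45, another helicase component, had 1 peak (230.1) that ended 422 bp short of its canonical TSS. That peak covered an upstream start of CDC45 and the start of its divergent neighbour UFD1. MCM10, an initiation factor, and GINS2 had no promoter peak.

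All 7 genes of the sliding clamp, its loader and the replicative polymerases had a peak over the canonical TSS. PCNA, the clamp, scored 578, with a second peak of 177 over its other start, the near edge of which lay 6071 bp upstream of the canonical one. POLD1, the catalytic subunit of polymerase delta, had the highest peak of this role (chr19:50884152-50888898, score 1590.1, 4747 bp). POLE, its counterpart in polymerase epsilon, scored 160.4, and POLA1, of the primase-associated polymerase alpha, scored 66.5 over 816 bp, the narrowest top peak of the 49. The clamp loader genes ranged widely. RFC3 had the lowest top score of all 49 genes at 63.3 (chr13:34391669-34392593), RFC2 had 229.6, and RFC4 had 388 over its canonical TSS and a peak of 1384 that began 15020 bp downstream, which lay within 1 kb of an alternative start but covered none.

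The genes of nucleotide supply all had a peak. RRM2, the regulated subunit of ribonucleotide reductase, scored 975 over 3568 bp and RRM1, the large subunit, scored 431. TYMS, the thymidylate synthase, had 85.8 over its canonical TSS and 729.8 in a peak over an alternative start, with its near edge 8370 bp downstream.

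The G1 cyclin and kinase genes held both the highest score of the list and genes without a peak. CCND1, cyclin D1, had the highest score of all 57 genes at 2789, over a peak of 10064 bp (chr11:69452719-69462782) that covered its TSS and much of its body, and a further peak of 845 lay 12553 bp downstream of the TSS. CCND3, cyclin D3, had 86.2 over its canonical TSS, and its highest peak (859), with its near edge 108220 bp upstream, lay over a distant alternative start and the start of TAF8. The kinase genes stood at 365 for CDK4, with a peak of 9206 bp, at 341 for CDK6 and at 104 for CDK2. CCNE2, cyclin E2, scored 437, whereas CCNE1, cyclin E1, had no peak within 94984 bp of its canonical TSS. CDC25A, the phosphatase that activates CDK2, also had no promoter peak, and the nearest lay 52219 bp away.

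The E2F genes separated into 3 with and 2 without a peak. E2F3, an activator, scored 1229 over 4411 bp, E2F7, an atypical repressor, scored 582 with 2 more peaks within 4569 bp downstream of its TSS, and E2F2 scored 92.7. E2F1, an activator with 1 annotated start, had no promoter peak, although a peak of 301 lay 10893 bp downstream. E2F8, an atypical repressor, had no peak within 122890 bp.

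All 6 genes of the mitotic cyclins, CDK1 and the mitotic CDC25 phosphatases had a promoter peak. The cyclin and kinase genes had low scores. CCNA2 scored 209, CCNB1 131, CCNB2 112 and CDK1, the kinase they activate, 79.7. The CCNA2 peak was 1891 bp wide, and those of CCNB1, CCNB2 and CDK1 were narrower, at 1220, 1138 and 1246 bp. The phosphatase genes had higher scores. CDC25C had no peak over its canonical TSS, and its peak of 1081 covered an alternative start, with its near edge 5664 bp upstream. CDC25B had 591 over its canonical TSS (7269 bp), 1009 in a peak over an alternative start and over the starts of CENPB and SPEF1, with its near edge 9177 bp upstream, and 2366 in its body, from 8058 bp downstream and outside its promoter windows.

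The mitotic kinase genes all had a peak, with AURKA, the centrosomal aurora kinase, at 328, PLK1 at 149 and AURKB, the kinase of the chromosomal passenger complex, at 76.1. The AURKA peak, 3303 bp wide, also covers the divergent start of CSTF1. Among the spindle checkpoint and anaphase-promoting complex genes, 5 of 6 had a peak, and they had the highest median of the G2/M roles at 355. MAD2L1, a checkpoint inhibitor of the complex, had 672 (chr4:120987382-120989237), the highest of any G2/M gene over its canonical TSS. UBE2C, the E2 enzyme of the complex, had 473.5 (chr20:44439222-44441875), CDC20, its activator, 355, TTK, the checkpoint kinase MPS1, 284, and BUB1 215. BUB1B, which encodes the checkpoint protein BUBR1, had no peak within 52034 bp of its canonical TSS.

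The centromere and remaining mitotic genes had the lowest median scores of the roles, 99.3 over 3 genes and 110 over 2 genes with a peak. CENPA, the centromeric histone H3 variant, had 288 over its canonical TSS and 495 in a peak over an upstream start and the start of SLC35F6. CENPF scored 99.3 and CENPE, a kinetochore motor, 78.5. TOP2A, topoisomerase II alpha, scored 74.2 and BIRC5, survivin, 146. MKI67, the gene of the proliferation marker Ki-67 (chr10:129894923-129924687, minus strand), had no promoter peak, and the nearest peak lay 1329480 bp away.

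**Figure D3:**
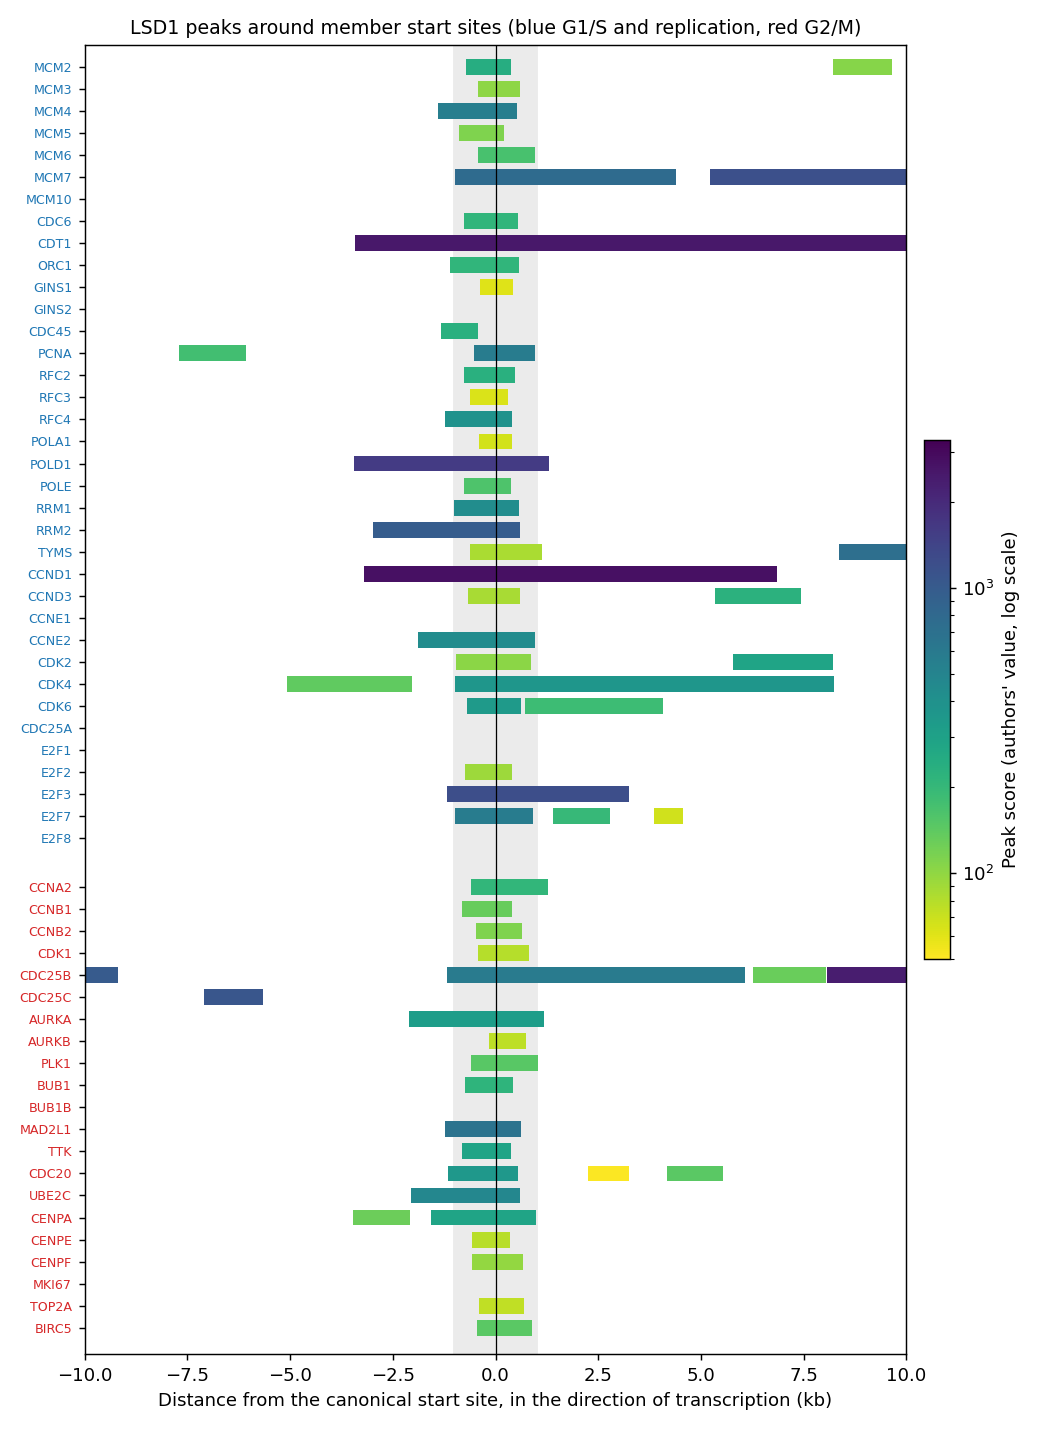
Peaks counted for each gene, at its promoters or in its body, drawn where they lie within 10 kb of the canonical TSS, in the direction of transcription (kb), coloured by score on a log scale, with the 1 kb window in grey and G1/S and replication genes above G2/M genes. Most peaks are short bars over the TSS, those of CDT1, CCND1, MCM7, CDK4 and CDC25B extend several kb, and the rows of MCM10, GINS2, CCNE1, CDC25A, E2F1, E2F8, BUB1B and MKI67 hold no such peak in this range.

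The 8 genes without a promoter peak were MCM10, GINS2, CCNE1, CDC25A, E2F1, E2F8, BUB1B and MKI67. All 8 had CpG-rich promoters. None lay just outside the 1 kb limit, since the nearest peak to any of their canonical start sites was 7502 bp away, at GINS2, with a score of 86.5. GINS2 and E2F1 had peaks that overlapped the gene only outside the promoter windows, with 2 at GINS2 (185 and 144) and 1 at E2F1. The E2F1 peak (chr20:32260477-32263298) lay almost wholly beyond the 3′ end of the gene at 32263283. The GINS2 peak of 185 (chr16:85707091-85710058) also lay mostly beyond the 3′ end, at 85709804. The other 6 had no peak anywhere in the gene. In all, 11 of the 57 genes (19.3%) had a peak overlapping the gene outside the promoter windows, against 20.6% of protein-coding genes. Of the 11, 8 were in G1/S and 3 in G2/M.

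Width and score rose together within the list. Over the 49 genes with a peak, Pearson's r of log10 score and log10 width was 0.746 and Spearman's rho was 0.748, a description across genes of 1 library, where a wide peak and a high score can both follow from the same reads. Over all genes with a promoter peak rho was 0.68. A top peak wider than 5 kb was present at 5 of the 49 genes, namely CDT1, CCND1, CDK4, CDC25B and MCM7. The share over all genes with a peak is not given here, so this count is not called few or many. CDK4 stood apart from them in having a wide peak at a score of 365.

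**Figure D4:**
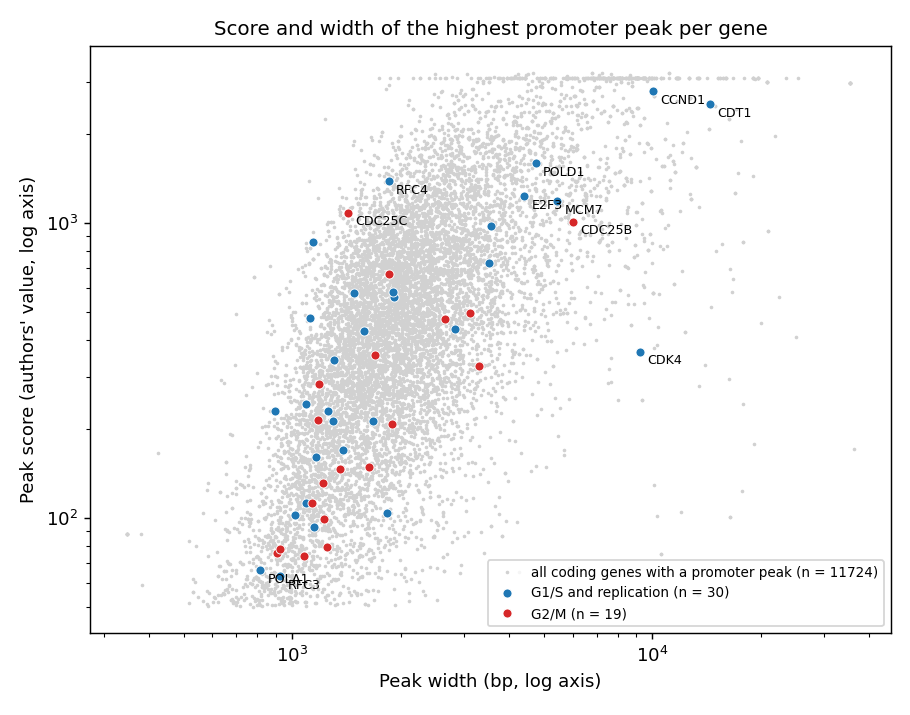
Width (bp) and score of the highest promoter peak per gene, both on log axes, with all 11724 protein-coding genes with a peak in grey, 30 G1/S and replication genes in blue and 19 G2/M genes in red. The named points include CCND1 and CDT1 at the upper right and POLA1 and RFC3 at the lower left, with scores of 66.5 and 63.3.

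The peaks over the canonical TSS were next placed by their midpoint. The median midpoint lay 54.0 bp upstream of the TSS over the 47 genes with such a peak and 60.2 bp downstream over all 10780 protein-coding genes with one. The midpoint was downstream in 19 of the 47 (40.4%), against 58.3% of all genes. By group it was downstream in 10 of 29 G1/S genes (34.5%) and in 9 of 18 G2/M genes.

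Promoters shared with a neighbour were about as frequent as in other genes. A divergent start of another coding gene lay within 1 kb at 9 genes (15.8%), against 12.4% of all genes with a canonical TSS and 16.7% of those with CpG-rich promoters. These were MCM2, MCM4, MCM7, ORC1, CDC45, POLE, CCNE2, CDC25C and AURKA. All 9 had a promoter peak, as did 91.2% of all genes with such a neighbour. The canonical TSS lay under a peak at 7 of the 9, against 88.7% of all such genes. At CDC25C no peak lay over the shared promoter, since its only promoter peak was 5664 bp from the canonical TSS. A peak over a shared start cannot be assigned to either gene. The 57 genes had a median of 7 annotated start sites against 5 over all genes, so more sequence was searched per gene, with a median of 6142 bp against 4584 bp. Of the 16 genes with 11 or more starts all had a peak, against 81.7% of all such genes. Of the 6 genes with 1 or 2 starts 5 had one, against 30.3%.

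The sequence elements differed between the groups in the way their names imply, E2F in G1/S and CHR in G2/M. Elements were counted on both strands in the 300 bases from 250 before to 50 after the canonical TSS. The E2F element was any of the words TTTGGCGC, TTTCCCGC, TTTCGCGC and TTTGCCGC. It was present at 21 of 36 G1/S genes (58.3%) and 2 of 21 G2/M genes (9.52%), CDK1 and CENPA, against 4.37% of all promoters and 5.64% of CpG-rich ones. All of MCM2 to MCM7 held it. The CHR element, TTTGAA or TTCGAA, was present at 18 of 21 G2/M genes (85.7%) and 4 of 36 G1/S genes (11.1%), against 12.8% of all promoters. The G2/M genes without it were CCNA2, CCNB1 and CENPE. The CCAAT box, CCAAT, was present at 18 G2/M genes (85.7%) and 24 G1/S genes (66.7%), against 36.0%. The ETS element CCGGAAG was present at 22.2% of G1/S and 19.0% of G2/M promoters, against 14.1%, and the SP/KLF element GGGCGG at 80.6% and 76.2%, against 61.4% of all and 83.3% of CpG-rich promoters. The NRF1 element was found at 1 of the 57 genes (1.75%), CDT1, against 1.7% of all promoters and 2.48% of CpG-rich ones. The SP/KLF word can share bases with the E2F words where they adjoin. A match is a description of the letters and does not show that a factor binds there. Absence of these exact words from the window does not show that a gene lacks the element in another form or place.

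Peaks were then counted at genes with and without the elements that mark the groups. The canonical TSS lay under a peak at 19 of the 23 genes with the E2F element (82.6%) and at 28 of the 34 without it (82.4%), against 73.5% and 53.3% over all promoters. For the CHR element the counts were 19 of 22 (86.4%) and 28 of 35 (80.0%), against 41.4% and 56.1%. For the CCAAT box they were 34 of 42 (81.0%) and 13 of 15 (86.7%), against 55.6% and 53.4%. By group they were 18 of 24 (75.0%) and 11 of 12 (91.7%) in G1/S. In G2/M the order was the other way, with 16 of 18 (88.9%) and 2 of 3 (66.7%). For the ETS element they were 10 of 12 (83.3%) and 37 of 45 (82.2%), against 85.0% and 49.2%. For the SP/KLF element they were 36 of 45 (80.0%) and 11 of 12 (91.7%), against 68.1% and 32.2%. Within G1/S the median score over the canonical TSS was 169 at the 17 covered genes with the E2F element and 377 at the 12 without it, against 439 and 473 over all promoters. Both sets spread widely. The 17 ranged from GINS1 (61.3), RFC3 (63.3) and POLA1 (66.5) to E2F3 (1229), POLD1 (1590), CDT1 (2519.5) and CCND1 (2789). The 12 ranged from CCND3 (86.2), CDK2 (104), ORC1 (213) and RFC2 (229.6) to E2F7 (582) and RRM2 (975).

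**Figure D5:**
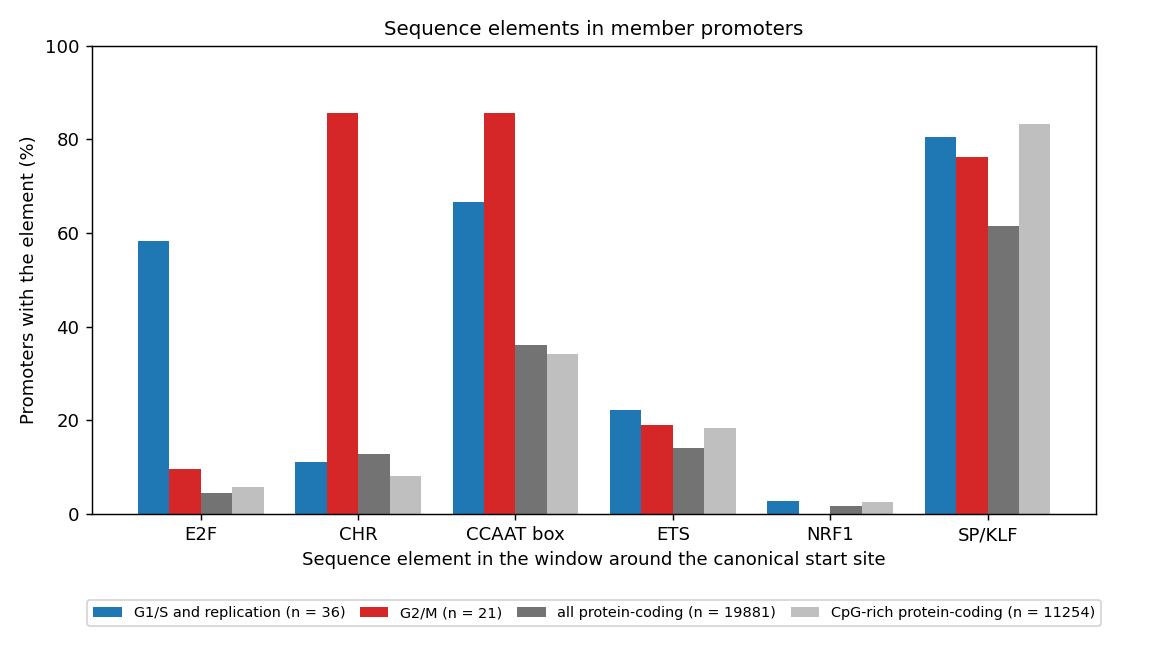
Share of promoters (%) with each sequence element in the 300-base window, for G1/S and replication genes, G2/M genes, all protein-coding genes and genes with CpG-rich promoters. The E2F bar is tall in G1/S (58.3%) and the CHR bar in G2/M (85.7%), while all protein-coding promoters stand at 4.37% and 12.8%.

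Other genes of the same pathways were read from lists of 77 genes, all of which were found. Of these, 68 had a promoter peak (88.3%), with a median score of 338. Among other replication factors 28 of 30 had one, led by POLD4, an accessory subunit of polymerase delta (2488), POLE3, a histone-fold subunit of polymerase epsilon (1614), and ORC5, of the origin recognition complex (975), and PRIM1 and GINS4 had none. Among RB, DREAM and MuvB regulators 13 of 15 had one, led by E2F5 (1517) and E2F4 (1019), the repressive E2F factors of DREAM, and RB1, the retinoblastoma protein (697), and the E2F dimer partners TFDP1 and TFDP2 had none. Among CDK inhibitors 6 of 7 had one, with the highest median of these lists at 756. They were led by CDKN2A, which encodes p16 and ARF (1644), CDKN2B, which encodes p15 (1106), and CDKN1A, which encodes p21 (919). No peak lay over the canonical TSS of CDKN2A, and CDKN1C had no promoter peak. Among other mitotic genes 21 of 25 had one, led by HMMR, a spindle protein (1508), FZR1, the late activator of the anaphase-promoting complex (1387), and PKMYT1, an inhibitory kinase of CDK1 (843), and KIF23, SPC25, NEK2 and ASPM had none.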

How the data were processed

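The data were 1 library of LSD1 ChIP-seq and 1 of input DNA from PC-3M-luc cells. Per the labels' protocols, sequencing was on a HiSeq 2000 and reads were aligned to hg19 by bowtie 2. MACS 1.41, Bowtie2, hg19 and mm10 appear in the submitters' processing notes, and the human build was used. Caller settings, duplicate handling, read numbers and the peak threshold are not given in the sources used here. The deposited list gives a position and a score per peak. It was taken as LSD1 called against input, which no label says outright. The score was read from its values as the caller's log-scaled p-value, also without a label, and served to rank and describe peaks.

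The 24 chromosomes of the list were found in GRCh37, with 0 peaks beyond a chromosome end. Start sites came from GENCODE 44 mapped to GRCh37, and 19881 protein-coding genes had a canonical TSS. Coordinates are 1-based. A gene's peak was the highest-scoring one within 1 kb of any TSS. The genes, their division into groups and the lists were chosen with earlier results of these data known. Every gene is accounted for, with values for the highest and lowest scores of each role, the absent peaks, peaks over 5 kb or off the canonical TSS, and the top 3 genes and absent peaks of each further list. No test was run, since genes are not replicates. The code was checked on simulated peaks. Alternatives were other windows, start sites, score minimums (100 or the median), the widest 1% removed, the nearest peak and other groupings. Python 3.11.15, numpy 2.4.6, scipy 1.17.1, pysam 0.24.0 and matplotlib 3.10.9 were used.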

Additional observations from a re-analysis of the deposited data

How the results depend on the processing

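No paired analysis was possible because LSD1 and input were 1 library each. Over 13 alternatives, 89 values of the groups (counts, median scores and median widths) stayed within the interval of the median, or for counts within 1.5 times, and 2 moved. Both moved when peaks under the median score (206) were left out, where 32 of the 57 genes and 10 of the 21 G2/M genes had a peak, and this alternative holds fewer peaks by construction. The G1/S median score stood above the G2/M one under all 13 alternatives, by 28.0 (237 against 209, nearest peak) to 192 (341 against 149, midpoint within 1 kb). The G1/S share stood below the G2/M share in 11 of 13, the exceptions being both score minimums. Without the widest 1% of peaks CCND1 and CDT1 had no peak, and the G1/S median was 292. CDT1 also had none by the midpoint, and CDC25C none with the canonical TSS alone. Moving CCNA2 to G1/S gave 365 and 182. The peak over the canonical TSS base was added after seeing the data. Depth is unknown, so a low score and an absent peak are not separated from sequencing depth.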
